A study of Mus musculus with 6 samples.

Results

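The antigen presentation genes described here were 10 genes picked by symbol, of 35415 genes in the deposited tables. They were H2-K1, H2-D1 and B2m of MHC class I, Tap1, Tap2, Psmb8 and Psmb9 of the class I peptide supply, and Cd74, H2-Aa and H2-Ab1 of MHC class II. All 10 were found in the tables, and all 10 passed the filter on low counts that left 17255 genes for testing. RNA sequencing was done on the lateral septum (LS), a forebrain region of mostly GABAergic neurons, from wild-type female C57BL/6 mice that arrived at about 8 weeks of age. The olanzapine group ate maintenance feed with olanzapine, a second-generation antipsychotic, at 50 mg per kg of feed for 12 weeks, and the control group ate the same kind of feed without the drug. Each group had 3 libraries, and each library was a pool of LS tissue from 3 mice, so that the spread given here is between pools and the spread between single mice is unknown. In such bulk tissue, fewer cells of a type and less RNA per cell cannot be told apart.

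The libraries held between 38208153 and 39868872 counts each. The LS neuron markers were present in every pool, with Gad1, which makes GABA, between 23651 and 32507 normalized counts (counts scaled to a common library size). Across the 17255 genes, 401 differed between the groups at an adjusted p under 0.05, of which 316 were higher and 85 lower in the olanzapine group. That count depended on single pools: it was 131 to 176 when any pool but olanzapine pool 1 was left out, and 508 without olanzapine pool 1. Pools differed in features that the groups did not explain. The summed counts of 8 choroid plexus markers were 4114, 105726 and 292951 in control pools 1, 2 and 3 and 45393, 184014 and 2691 in olanzapine pools 1, 2 and 3, a range of 109-fold. Markers of hepatocytes, a cell type foreign to brain, were at 468 to 796 summed counts in the control pools and at 8978 to 11018 in the olanzapine pools, and 12 of 12 were called higher. Results that these pools or markers touch are given with them below.

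MHC class I molecules display short peptides from proteins made inside the cell to CD8+ T cells. A heavy chain such as H2-K1 or H2-D1 folds with B2m, the shared light chain, around a peptide that the proteasome has cut and that the Tap1-Tap2 transporter has pumped into the endoplasmic reticulum. Psmb8 and Psmb9 are inducible catalytic subunits that take the places of the constitutive Psmb5 and Psmb6 in the immunoproteasome, and interferon raises most of these genes together. MHC class II dimers of H2-Aa and H2-Ab1 carry peptides from engulfed material to CD4+ T cells, and Cd74, the invariant chain, holds their groove until they reach the endosome. In healthy brain, class I is found above all in endothelium and microglia and in some neurons, while class II is largely restricted to macrophages and dendritic cells at the brain's borders, among them the choroid plexus and the meninges.

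Of the 10 genes, 8 lie in the MHC region of chromosome 17, between positions 33996017 and 35267499 of GRCm38, a span of 1.27 Mb (positions from GENCODE; mm10, the build of the deposited tables, is the same assembly). H2-K1 is at chr17:33996017-34000347 on the minus strand and H2-D1 at chr17:35262730-35267499 on the plus strand. Between them, Psmb9 at chr17:34181987-34187764, Tap1 at chr17:34187553-34197225, Psmb8 at chr17:34197721-34201454 and Tap2 at chr17:34203527-34216321 follow one another, and H2-Ab1 at chr17:34257689-34269419 and H2-Aa at chr17:34282744-34287823 come after them. B2m stands apart at chr2:122147686-122153083, and Cd74 lies on a further chromosome. Exons of Tap1 and Psmb9 overlap on opposite strands by 212 bases, and exons of Tap2 and Psmb8 overlap opposite-strand transcripts by 698 and 498 bases. The counting's use of strand is not given in the sources used here, so reads from those bases cannot be assigned with certainty. Class I heavy chains also resemble one another. Of all stretches of 150 bases in the H2-D1 transcript, 1.79% occurred word for word in another gene, H2-Q1, while H2-K1 and the other 8 genes had none (0%). The search took the longest protein-coding transcript of each gene. It compared it, in the sense direction, only with transcripts of these 10 genes, of H2-Q10 and of genes whose symbols start with H2- or Gm. Matches in other genes were not searched. This covers exact matches only, so that counts of the class I heavy chains remain less certain than the others.

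The start sites of H2-K1 and H2-D1 share sequence elements that H2-Q10, a secreted class I heavy chain of liver described further on, holds only in part. The RefSeq promoter table (GRCm38.p6, 250 bases before to 50 bases after each start) held 7 of the 10 genes. The stretches below run 5′ to 3′ on the gene's own strand, each 130 bases long and placed so that they start 26 bases before the interferon-type element. Capitals mark, in this order, the enhancer A palindrome GGGGATTCCCC known to bind NF-κB and related factors, the interferon-type element GAANNGAAA (here read on the other strand), and CCAAT boxes on either strand. The H2-K1 stretch is chr17:34000334-34000463 on the minus strand, the H2-D1 stretch chr17:35262918-35263047 on the plus strand, and the H2-Q10 stretch chr17:35469908-35470037 on the plus strand.
H2-K1: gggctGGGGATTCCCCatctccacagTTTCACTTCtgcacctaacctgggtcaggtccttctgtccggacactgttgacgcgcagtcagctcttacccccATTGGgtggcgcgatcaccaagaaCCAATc
H2-D1: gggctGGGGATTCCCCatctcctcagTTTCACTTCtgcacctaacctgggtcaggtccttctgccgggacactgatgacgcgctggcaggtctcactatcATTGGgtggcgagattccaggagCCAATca
H2-Q10: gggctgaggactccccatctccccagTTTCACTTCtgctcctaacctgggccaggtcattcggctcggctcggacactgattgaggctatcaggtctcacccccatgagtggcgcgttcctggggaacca

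Both strands of each 300-base window were searched for 4 motifs. Enhancer A was found at H2-K1 and H2-D1, and in only 10 of 32851 promoters in the table (0.0304%). At the same place H2-Q10 matched 9 of its 11 letters, with the substitutions G2A and T6C (H2-K1's base first, counted from 1 at the motif's 5′ end). The interferon-type element GAANNGAAA was found at H2-K1, H2-D1 and H2-Q10 and in 7.52% of all promoters. Only this exact spacing was searched. The B2m window had no such match but held gaaactgaaa, in which GAA and GAAA stand further apart. The absence of a match therefore does not show that a gene lacks an interferon-type element. The gamma-activated-type element TTCNNNGAA was found at Psmb8 and in 8.3% of all promoters. CCAAT was found at 6 of the 7 genes, all but Psmb8, and in 37.4% of all promoters. Tap1 and Psmb9 are transcribed away from each other, and their windows share 275 bases. A match of letters is a description and shows no binding in this tissue.

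Levels were compared per transcript length, in FPKM (fragments per kilobase of transcript, scaled to the mapped reads of a library, as deposited). B2m was at 116 to 130 FPKM over the 6 pools, H2-D1 at 22.2 to 35.4 and H2-K1 at 11.8 to 19.4, and these ranges overlapped neither each other nor those of the other 7 genes. Next came Cd74 with a mean of 4.44 FPKM and Tap2 with 4.10, whose ranges of 1.51 to 7.81 and 3.13 to 5.20 overlapped. The remaining genes had means of 2.42 FPKM for Psmb8, 1.55 for H2-Ab1, 1.22 for H2-Aa, 1.10 for Psmb9 and 1.04 for Tap1, and neighbours in this order did not differ beyond the range of their pools. The light chain was therefore listed well above both heavy chains, and the transporter and immunoproteasome genes were at low levels.

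None of the 10 genes differed between the groups at an adjusted p under 0.05 (quasi-likelihood F test of edgeR, adjusted by Benjamini-Hochberg across the 17255 genes), against 2.32% of all tested genes. At an unadjusted p under 0.05, 3 genes were lower in the olanzapine group (H2-K1, H2-D1 and Psmb8), against 8.4% of all tested genes in that direction, and none was higher. DESeq2 called 0 of 10 and had 3 at an unadjusted p under 0.05, and limma on log2(FPKM + 1) called 0 and had 2. The 3 genes became 0 without control pool 2, 1 without olanzapine pool 2 or 3, and 2 without control pool 1 or 3. They were also 0 with a score of brain endothelium markers as a covariate and 0 without both pools lowest in choroid plexus markers, alternatives added after seeing the data. The normalized counts of the groups did not overlap for H2-K1 and Psmb8, both lower in the olanzapine group, against 11% of all tested genes. In either direction it was 2 of 10 genes against 24.3% of all tested genes, and without olanzapine pool 1 it was 4 of 10 against 37.6%. The fitted log2 fold changes (olanzapine against control) were below 0 for all 7 class I and peptide supply genes and above 0 for the 3 class II genes. Their median over the 10 genes was −0.24, beside 0.0039 over all tested genes, of which 49.3% were below 0, and it was −0.13 without olanzapine pool 3 and −0.11 with the endothelial score as a covariate.

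**Figure D1:**
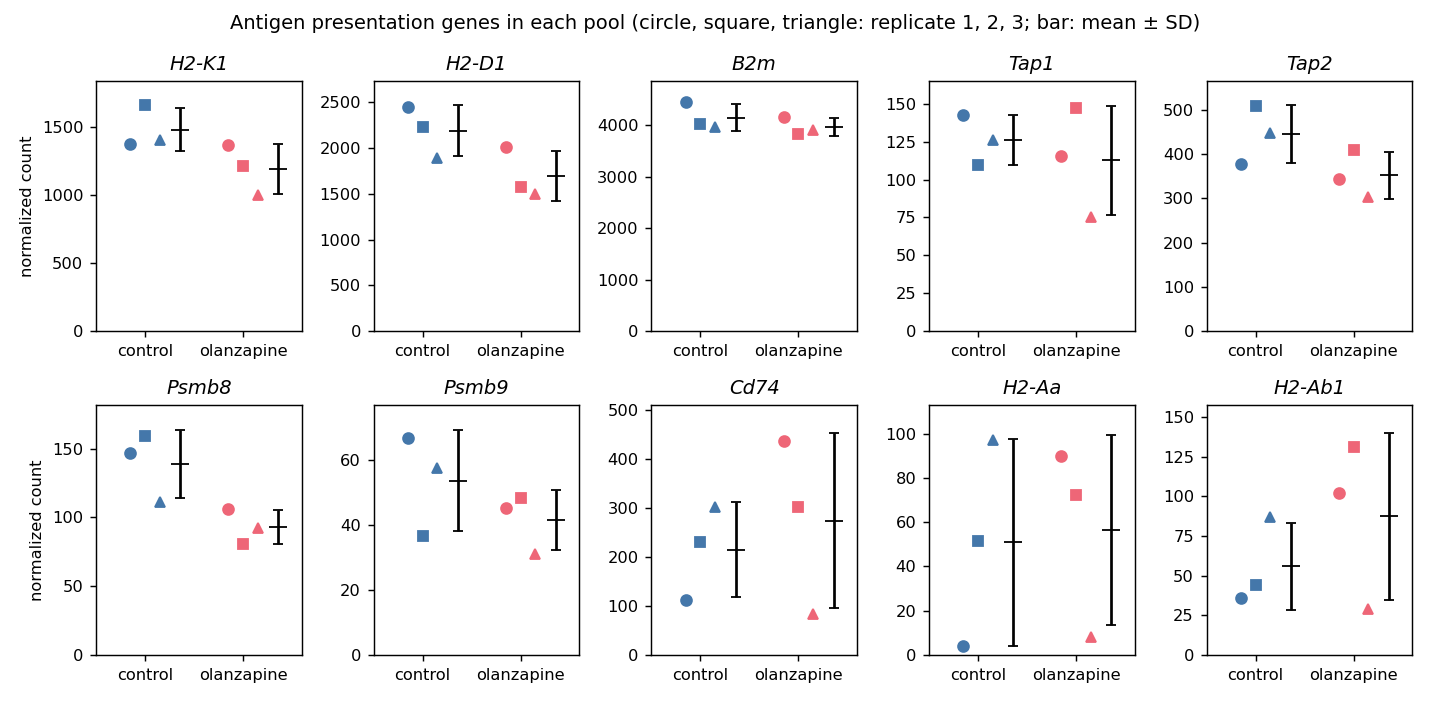
Normalized counts (y axes, each from 0) of the 10 genes in the 3 control and 3 olanzapine pools (x axis), with a bar for the mean ± SD of each group. H2-K1 and Psmb8 are the genes whose pools do not overlap between the groups, and H2-Aa runs from 4.0 in control pool 1 to 97.2 in control pool 3.

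Among the class I chains, both heavy chains had lower means in the olanzapine group without passing the test, and the mean of the light chain was nearly level. H2-D1 was at 2447, 2235 and 1893 normalized counts in control pools 1, 2 and 3 and at 2014, 1576 and 1500 in olanzapine pools 1, 2 and 3. Olanzapine pool 1 lay above control pool 3, so the groups overlapped. The means were 2192 ± 280 and 1697 ± 277 (SD, n = 3 each), a log2 fold change of −0.37 (SE 0.14, 95% interval −0.68 to −0.057) that did not pass the adjustment in edgeR (adjusted p = 0.209).

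H2-K1 was at 1375, 1663 and 1404 normalized counts in the control pools and at 1365, 1215 and 1001 in the olanzapine pools. The groups did not overlap, but the highest olanzapine pool and the lowest control pool were nearly equal. The means were 1481 ± 159 and 1194 ± 183 (SD, n = 3 each), a log2 fold change of −0.31 (SE 0.13, 95% interval −0.61 to −0.015; edgeR adjusted p = 0.259). The log2 fold change of H2-K1 was −0.20 without olanzapine pool 3, −0.21 without control pool 2 and −0.42 without olanzapine pool 1. Olanzapine pool 3 was the lowest of the 6 pools for both heavy chains.

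B2m was at 4445, 4014 and 3962 normalized counts in the control pools and at 4148, 3824 and 3894 in the olanzapine pools. It was the steadiest of the 10 genes, with 1.16-fold between its highest and lowest pool. Its log2 fold change was −0.066 (SE 0.074, 95% interval −0.24 to 0.10; edgeR adjusted p = 0.696), so that a fall of more than 0.24 on the log2 scale lay outside the interval.

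The heavy chains were also set against the light chain within each pool, a comparison added after the values had been seen. H2-D1 was at 27.2%, 27.5% and 23.6% of the FPKM of B2m in the control pools and at 24%, 20.4% and 19.0% in the olanzapine pools. The control mean was 26.1% ± 2.17 and the olanzapine mean 21.1% ± 2.56 (SD, n = 3 each), with olanzapine pool 1 just above control pool 3. The difference of log2 ratios was −0.31 (exact two-sided permutation test, p = 0.2, adjusted p = 0.3 over both heavy chains). For H2-K1 the ratios were 12.2%, 16.3% and 13.9% in the control pools, against 12.9%, 12.5% and 10.1% in the olanzapine pools, a difference of −0.25 on the log2 scale (exact permutation p = 0.3, adjusted p = 0.3), which was −0.14 without control pool 2 or without olanzapine pool 3. With 3 pools against 3, 20 assignments exist and no p below 0.1 can be reached, so that this test could not have passed the threshold for any ratio.

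Brain endothelium, a main site of class I in brain, was followed with 9 marker genes. Their summed normalized counts were 7686, 7933 and 7052 in the control pools, against 8007, 4955 and 4504 in the olanzapine pools. Olanzapine pools 2 and 3 were thus lowest for these markers and for H2-D1 and H2-K1, whereas olanzapine pool 1 was highest for the markers. All 9 markers had log2 fold changes below 0, with a median of −0.43, and 0 were called (edgeR; 1 at an unadjusted p under 0.05, Flt1). With the endothelial score as a covariate, an alternative added after seeing the data, the log2 fold change was −0.17 for H2-D1 and −0.13 for H2-K1. The 10 microglia markers summed to 14970 to 15822 in the control pools, against 14270 to 16438 in the olanzapine pools, a range of 1.15-fold. Of their log2 fold changes 7 of 10 were above 0, and none was called by edgeR. At an unadjusted p under 0.05, 1 was higher and 2 were lower in the olanzapine group, the latter against 8.4% of all tested genes in that direction. Any part of the endothelial markers in the heavy chain values was not tested beyond this.

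Among the peptide supply genes, all 4 had lower means in the olanzapine group, with a median log2 fold change of −0.35. Psmb8, the inducible chymotrypsin-like subunit, stood at 147, 159 and 111 normalized counts in the control pools and at 106, 81.0 and 92.5 in the olanzapine pools. The groups did not overlap, and control pool 3 and olanzapine pool 1 were close. The means were 139 ± 24.9 and 93.2 ± 12.6 (SD, n = 3 each), which gave the lowest log2 fold change of the 10 genes at −0.58 (SE 0.22, 95% interval −1.09 to −0.063; edgeR adjusted p = 0.231). With the endothelial score as a covariate it was −0.41.

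Tap2, one subunit of the peptide transporter, was at 377, 508 and 448 normalized counts in the control pools and at 344, 409 and 304 in the olanzapine pools. Olanzapine pool 2 lay above control pool 1. The means of 444 ± 65.9 and 352 ± 53.1 (SD, n = 3 each) gave a log2 fold change of −0.34 (SE 0.17, 95% interval −0.72 to 0.046, edgeR adjusted p = 0.339). Without control pool 2 it was −0.22, and without olanzapine pool 2 it was −0.46.

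Tap1, its partner subunit, was at 143, 110 and 126 normalized counts in the control pools and at 115, 147 and 75.4 in the olanzapine pools. The highest and the lowest pool were both olanzapine pools. The log2 fold change was −0.16 (SE 0.27, 95% interval −0.79 to 0.46; edgeR adjusted p = 0.807), and without olanzapine pool 3 it was 0.06.

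Psmb9, the inducible subunit that replaces Psmb6, was at 66.9, 36.5 and 57.5 normalized counts in the control pools and at 45.3, 48.4 and 31.2 in the olanzapine pools. Control pool 2 was below olanzapine pools 1 and 2, so the groups overlapped. The log2 fold change was −0.36 (SE 0.34, 95% interval −1.16 to 0.43; edgeR adjusted p = 0.630), and the interval reached to both sides of 0. It was −0.18 without control pool 1, −0.20 without olanzapine pool 3 and −0.57 without control pool 2.

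**Figure D2:**
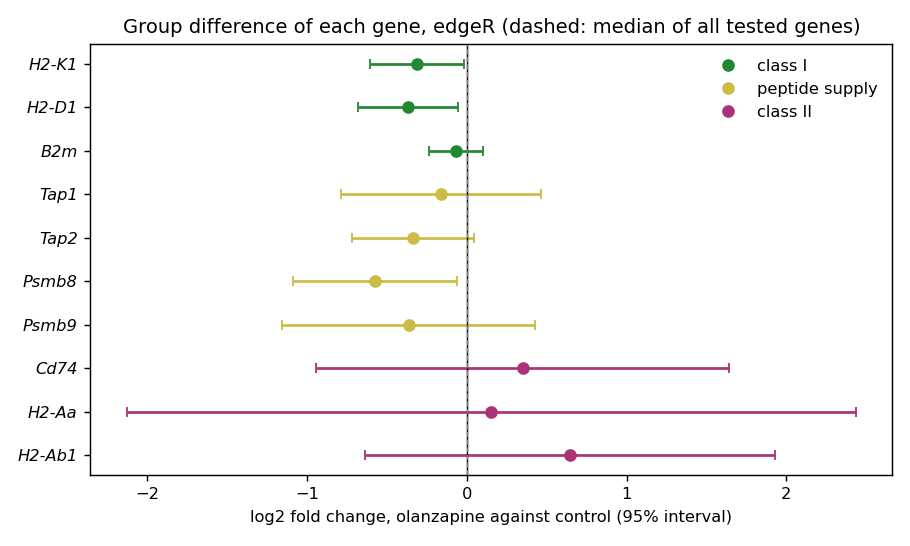
Log2 fold change of each gene, olanzapine against control (x axis), from edgeR with its 95% interval, coloured by class I, peptide supply and class II; the dashed line is the median of all tested genes, 0.0039. The 7 class I and peptide supply points lie left of 0 and the 3 class II points right of it, and the intervals of H2-K1, H2-D1 and Psmb8 do not reach 0 before adjustment.

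The inducible subunits were set against the constitutive subunits they replace, as FPKM ratios within each pool. Psmb8 was at 3.92%, 4.09% and 2.55% of Psmb5 in the control pools and at 2.74%, 2.00% and 2.30% in the olanzapine pools, with means of 3.52% ± 0.844 and 2.35% ± 0.374 (SD, n = 3 each). The difference of log2 ratios was −0.56 (exact two-sided permutation test, p = 0.2, adjusted p = 0.45 over 3 ratios). Psmb9 was at 1.45% ± 0.440 of Psmb6 in the control pools, against 1.04% ± 0.265 in the olanzapine pools (SD, n = 3 each), a difference of −0.46 (exact permutation p = 0.3, adjusted p = 0.45) that was −0.25 without control pool 1, −0.24 without olanzapine pool 3 and −0.70 without control pool 2. Psmb10, the third inducible subunit, was at 17.9% ± 1.47 of Psmb7 in the control pools, against 17.7% ± 3.29 in the olanzapine pools (SD, n = 3 each), a difference of −0.027 (exact permutation p = 0.9, adjusted p = 0.9). In every pool Psmb8 and Psmb9 stood at a few percent or less of their constitutive counterparts, while Psmb10 stood at 14.9% to 21.3% of its own.

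**Figure D3:**
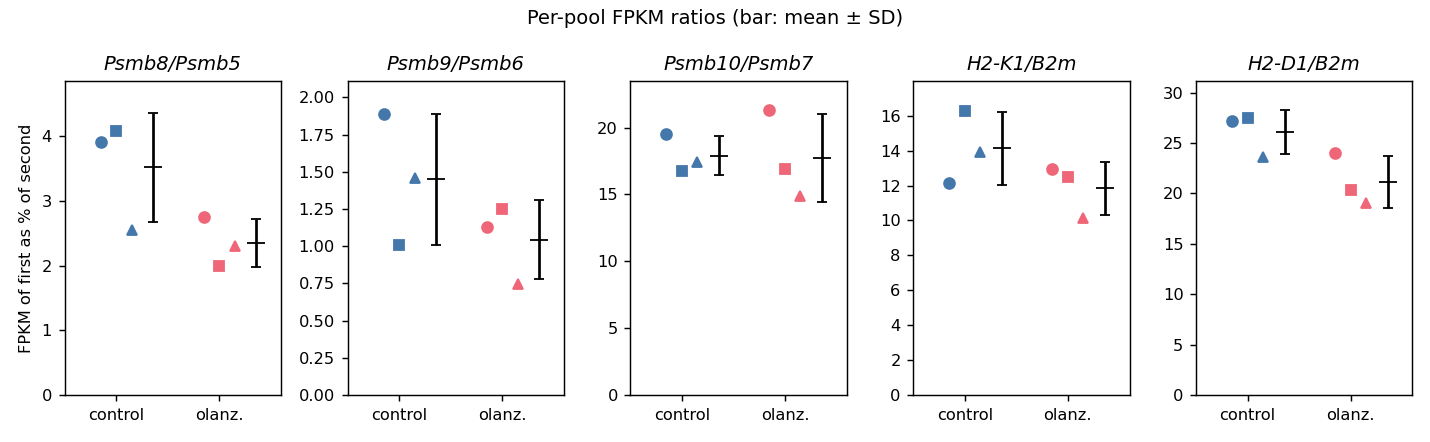
FPKM of each inducible subunit as a percentage of its constitutive counterpart, and of each heavy chain as a percentage of B2m (y axes, each from 0), in the control and olanzapine pools (circle, square and triangle for replicate 1, 2 and 3), with the mean ± SD. Psmb8/Psmb5 and H2-D1/B2m have lower means in the olanzapine pools with 1 olanzapine pool above the lowest control pool, and Psmb10/Psmb7 is level at 17.9% and 17.7%.

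The class II genes had higher means in the olanzapine group, but they varied far more between pools of one group than between the groups. Cd74, the invariant chain, was at 112, 231 and 303 normalized counts in the control pools and at 438, 303 and 83.4 in the olanzapine pools. The highest and the lowest pool were both olanzapine pools, 5.25-fold apart. The log2 fold change was 0.35 (SE 0.56, 95% interval −0.94 to 1.64; edgeR adjusted p = 0.797), and without olanzapine pool 1 it was −0.16.

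H2-Aa, the class II alpha chain, was at 4.0, 51.3 and 97.2 normalized counts in the control pools and at 89.7, 72.1 and 8.0 in the olanzapine pools. Each group held 1 pool near 0, and the range over the 6 pools was 24.3-fold. Its log2 fold change of 0.15 (SE 0.99, 95% interval −2.13 to 2.44; edgeR adjusted p = 0.954) turned to −0.39 without control pool 1, to −0.34 without olanzapine pool 1 and to −0.06 without olanzapine pool 2.

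H2-Ab1, the class II beta chain, was at 36, 44.4 and 87.2 normalized counts in the control pools and at 102, 131 and 29.2 in the olanzapine pools. Olanzapine pools 1 and 2 were the highest and olanzapine pool 3 the lowest of all. The log2 fold change was 0.65 (SE 0.56, 95% interval −0.64 to 1.93; edgeR adjusted p = 0.593). It was 0.23 without olanzapine pool 2, 0.41 without control pool 1, 1.06 without olanzapine pool 3 and 1.13 without control pool 3. The within-group SD on the log2 scale was 0.931 for H2-Ab1, 1.03 for Cd74 and 2.06 for H2-Aa, beside 0.192 for H2-K1 and a median of 0.139 over 14279 genes with a mean of at least 50 counts.

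The 3 class II genes varied together from pool to pool. Their summed normalized counts were 152, 327 and 488 in control pools 1, 2 and 3 and 630, 507 and 121 in olanzapine pools 1, 2 and 3. Control pool 1 and olanzapine pool 3, the lowest in each group, were also the lowest in the choroid plexus markers (4114 and 2691 summed counts, beside 45393 to 292951 in the other 4 pools). They were lowest as well in 8 meninges markers, at 2140 and 1436 beside 4557 to 12176. Igf2, a growth factor gene, made most of that sum in the other 4 pools but not in these, where it was lowest, and the other 7 markers summed to 1107 and 823 beside 1282 to 1695. The order among the other pools differed: olanzapine pool 1 had the most class II RNA and the fewest choroid plexus counts of these 4. Border macrophage markers, 8 genes of which Stab1 made most of the counts, summed to 602, 662 and 604 in the control pools, against 803, 601 and 426 in the olanzapine pools. They were highest in olanzapine pool 1 and lowest in olanzapine pool 3, as were the class II genes, but control pool 1 was level with control pool 3. None of the 8 choroid plexus, 8 meninges or 6 tested border macrophage markers was called (edgeR; none at an unadjusted p under 0.05), with median log2 fold changes of −0.60, −0.24 and −0.39.

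With the choroid plexus score as a covariate, an alternative added after seeing the data, the log2 fold changes were 0.66 for Cd74, 1.25 for H2-Aa and 0.86 for H2-Ab1, and none was called (edgeR adjusted p = 0.443, 0.385 and 0.260). Without both control pool 1 and olanzapine pool 3 they were 0.47, 0.12 and 0.82. Among the class I and peptide supply genes, the log2 fold change without these pools was −0.35 for Tap2, −0.53 for Psmb8 and −0.25 for H2-K1, near the values with all pools, and −0.20 for H2-D1, −0.0012 for B2m, −0.0047 for Psmb9 and 0.16 for Tap1. The median over the 10 genes was −0.0029. The part of choroid plexus or other border tissue in the class II values was otherwise not tested.

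Markers of dendritic cells and lymphocytes, which could carry class II as well, differed widely in level. Of 15 such genes in the tables, 5 passed the filter, and the sum over all 15 was 963 to 1182 normalized counts in the control pools, against 1096 to 1552 in the olanzapine pools. Most of the sum came from Cd4, at 314 to 1008 normalized counts over the 6 pools, Zbtb46, at 329 to 469, and Flt3, at 119 to 256. Of the B cell genes, Ms4a1 was at 0 in all 6 pools while Cd79a had 26, 16 and 9 counts in the control pools, against 29, 11 and 13 in the olanzapine pools. Of the T cell genes, Cd3d had 4, 2 and 0 counts in the control pools, against 6, 0 and 0 in the olanzapine pools, and Cd3e had 6, 0 and 1 counts in the control pools, against 0 in each olanzapine pool. Of the 5 tested genes 0 were called (edgeR; 1, Flt3, at an unadjusted p under 0.05) and the median log2 fold change was 0.14.

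**Figure D4:**
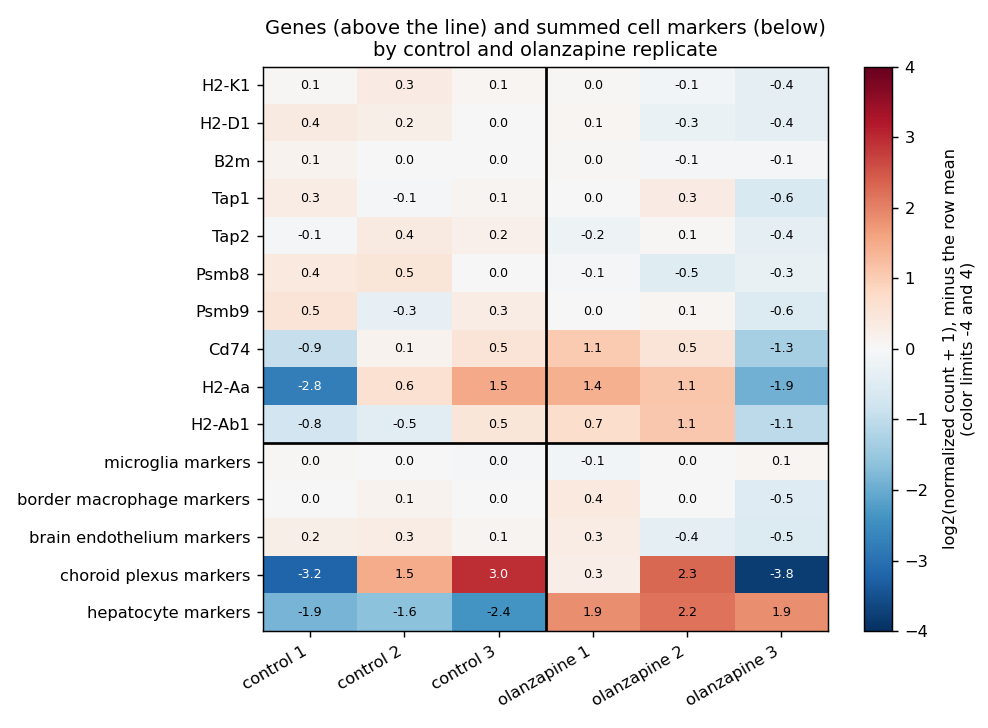
Deviation of log2(normalized count + 1) from the row's mean over the 6 pools, for the 10 genes (above the line) and for summed cell type markers (below it), by pool (columns) with the value printed in each cell. Class II genes are low in control pool 1 and olanzapine pool 3, as are the choroid plexus markers, while the hepatocyte markers split by group.

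The wider antigen presentation pathway was followed in 6 lists of genes. Among other class I heavy chains, 11 were in the tables and 7 were tested, of which 1 was called higher and 0 lower, against 1.83% of all tested genes called higher. The gene called was H2-Q10, at 9, 21 and 4 counts in the control pools and at 65, 123 and 100 in the olanzapine pools. Every olanzapine pool was above every control pool. The means were 11.2 ± 8.60 and 96.3 ± 27.5 normalized counts (SD, n = 3 each), a log2 fold change of 3.09 (SE 0.54, 95% interval 1.84 to 4.33; edgeR adjusted p = 0.0297). H2-Q10 encodes a secreted class I chain made mainly by liver, and it rose in the same pools in which the hepatocyte markers rose, with a median log2 fold change of 4.09 for the 12 markers. Among these, Fgb and Fga, chains of fibrinogen, rose by 5.02 and 4.86 on the log2 scale, and Hnf4a, a transcription factor of hepatocytes, had 1 count in each control pool and 32, 34 and 35 in the olanzapine pools. The part of hepatocyte RNA in the H2-Q10 value was not tested. The call was lost without control pool 1 (edgeR adjusted p = 0.127), control pool 3 (adjusted p = 0.0692), olanzapine pool 2 (adjusted p = 0.0972) or olanzapine pool 3 (adjusted p = 0.0972), with log2 fold changes of 2.70 to 3.05.

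H2-T24 was at 98.9, 108 and 38.7 normalized counts in the control pools and at 36.1, 37.5 and 38.2 in the olanzapine pools, a log2 fold change of −1.13 (edgeR adjusted p = 0.195) that control pools 1 and 2 carried. H2-Q4 had means of 204 ± 29.8 and 131 ± 45.9 (SD, n = 3 each) and a log2 fold change of −0.64 (edgeR adjusted p = 0.279). This value was −0.41 without olanzapine pool 3, −0.91 without olanzapine pool 1 and −0.27 with the endothelial score as a covariate. The median of the 7 tested heavy chains was −0.12, with 5 below 0.

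Of 6 class I-like chains, 1 was called higher, against 1.83% of all tested genes, and 5 were below 0, with a median of −0.20. The gene called was Azgp1, a secreted zinc-binding protein with a class I fold that liver and other epithelia make. It was at 17, 39 and 8 counts in the control pools and at 114, 132 and 121 in the olanzapine pools, again split as the hepatocyte markers were. Its log2 fold change was 2.53 (SE 0.49; edgeR adjusted p = 0.0404), and the part of hepatocyte RNA in it was not tested either. The call was lost without control pool 1 (edgeR adjusted p = 0.155), control pool 3 (adjusted p = 0.0691), olanzapine pool 2 (adjusted p = 0.110) or olanzapine pool 3 (adjusted p = 0.114).

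The peptide-loading list held 8 genes, all tested, of which 0 were called (edgeR) and 3 had an unadjusted p under 0.05, all lower in the olanzapine group, against 8.4% of all tested genes in that direction. Erap1, which trims peptides in the endoplasmic reticulum, was at 410, 388 and 588 normalized counts in the control pools and at 305, 311 and 302 in the olanzapine pools. The groups did not overlap, and the log2 fold change was −0.59 (SE 0.18; edgeR adjusted p = 0.139). DESeq2 called it (adjusted p = 0.0361). Control pool 3 was far above the other control pools, and without it the log2 fold change was −0.37. Uggt1, a folding sensor of glycoproteins, had a log2 fold change of −0.28 (edgeR adjusted p = 0.185, and 0.0477 without olanzapine pool 1), and Canx, a chaperone of nascent heavy chains, had −0.15 (edgeR adjusted p = 0.282). The median of the list was −0.13.

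Of 8 further proteasome subunits and activators, 7 had log2 fold changes above 0, with a median of 0.099 beside 0.0039 over all tested genes, and 1 was called higher, against 1.83% of all tested genes. Psme4, which encodes the activator PA200 and not an interferon-induced part of the machinery, was at 1437, 1454 and 1497 normalized counts in the control pools and at 2099, 1943 and 1909 in the olanzapine pools. The groups were well apart, and the log2 fold change was 0.44 (SE 0.069, 95% interval 0.28 to 0.60; edgeR adjusted p = 0.0218). The call was lost when any pool but olanzapine pool 1 was left out (edgeR adjusted p = 0.0621 to 0.102), with the direction kept. None of Psme4, H2-Q10 and Azgp1 was called without both pools lowest in choroid plexus markers (edgeR adjusted p = 0.237, 0.279 and 0.305). Their log2 fold changes were then 0.45, 2.92 and 2.41, near the values with all pools, and fewer pools entered that fit. The interferon-inducible activator genes Psme1 and Psme2 had log2 fold changes of 0.14 and 0.18 (edgeR adjusted p = 0.476 and 0.454) and overlapped between the groups.

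The class II accessory list had 15 genes in the tables and 12 tested, of which 0 were called (edgeR; 1 at an unadjusted p under 0.05), with a median of −0.068. H2-Eb1, a further class II beta chain, followed the 3 class II genes, with 41.0, 86.9 and 90.2 normalized counts in the control pools, against 101, 135 and 43.2 in the olanzapine pools, and a log2 fold change of 0.36 (edgeR adjusted p = 0.740). Marchf1, a ubiquitin ligase that removes class II from the cell surface, had means of 1835 ± 174 and 1451 ± 139 (SD, n = 3 each) and a log2 fold change of −0.34 (edgeR adjusted p = 0.141).

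Among 26 regulators of MHC genes, 23 were tested and 0 were called (edgeR; 2 at an unadjusted p under 0.05), with a median of −0.045. Nfyc, a subunit of the factor that binds CCAAT boxes, had a log2 fold change of 0.18 (edgeR adjusted p = 0.260). The class I transactivator Nlrc5 was at 61, 32 and 26 counts in the control pools and at 43, 27 and 30 in the olanzapine pools, while the class II transactivator Ciita had 1 to 8 counts in every pool. Ifng, the interferon that induces both classes, had 1 count in each control pool and 0, 0 and 12 in the olanzapine pools. Olanzapine pool 3, which held those 12 counts, was the lowest pool for H2-K1, H2-D1, Tap1, Tap2, Psmb9, Cd74 and H2-Ab1. That pool was also lowest for the summed brain endothelium, choroid plexus and border macrophage markers. Ifng did not pass the count filter, and any link between it and these levels was not tested.

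**Figure D5:**
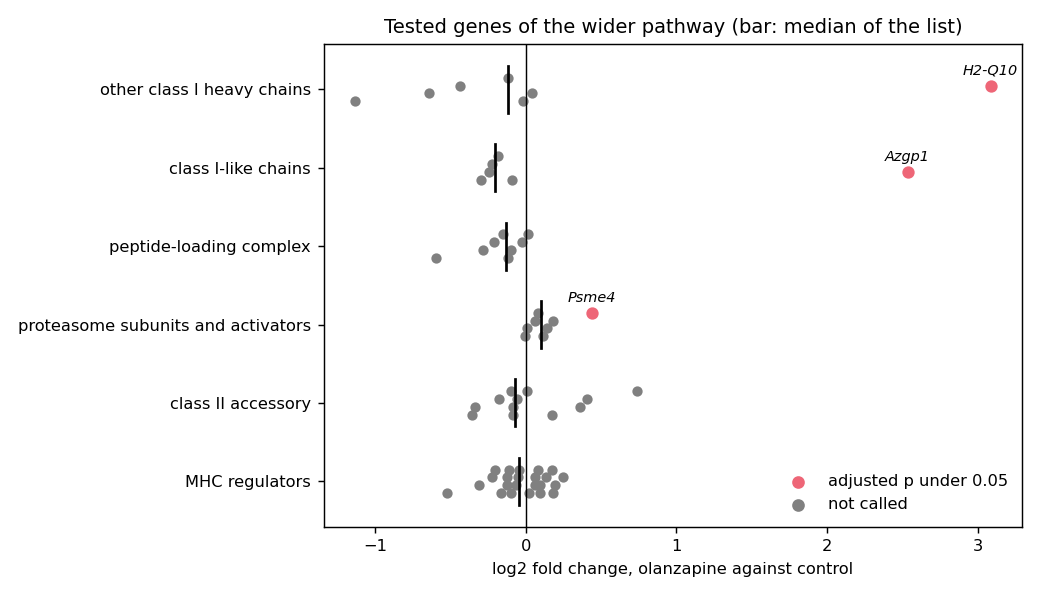
Log2 fold change, olanzapine against control (x axis), of each tested gene in 6 lists of the wider antigen presentation pathway (rows), with a bar at each list's median; coloured points are called at an adjusted p under 0.05. H2-Q10 at 3.09 and Azgp1 at 2.53 stand far from the other genes, and Psme4 is called at 0.44.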

How the data were processed

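Total RNA of pooled LS tissue was sequenced as paired reads. Per the labels and the study's methods, the authors trimmed reads with fastp, mapped them with HISAT2 to mm10 and counted them per gene with HTSeq, and deposited a table of raw counts and one of FPKM for the same 6 pools. Versions, annotation, strand setting and the handling of reads with several matches are not given in the sources used here; a setting that drops such reads lowers the counts of similar class I heavy chains. All sample columns were used (0 left out).

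Counts were tested with edgeR 4.0.16 (R 4.3.3): TMM scaling, filterByExpr (count minimum 10, total minimum 15), the quasi-likelihood F test, and Benjamini-Hochberg adjustment over all tested genes, with calls at an adjusted p under 0.05. The SE is the log2 fold change divided by the square root of F. Nothing says how animals were assigned to pools, so p-values measure the spread between pools. Totals of 38208153 to 39868872 counts make genes with few counts less precise. Levels were compared between genes, and ratios formed, on FPKM. Alternatives were DESeq2 1.42.0, limma 3.58.1 on log2(FPKM + 1) or log2(FPKM + 0.1), other scalings and filters, a replicate block and leaving out each pool. The fit was tested on simulated data. The 10 genes and all lists were chosen with earlier results of these data known. Named were the 10 genes, those of the wider lists with an unadjusted p under 0.05 (or the 2 with the highest mean count), at most 3 called genes of each marker list, and the 5 genes most like each pattern. Flt1, Flt3, Gad1, H2-Eb1, Stab1, Igf2, Psme1, Psme2, Nlrc5, Ciita, Ifng, Ms4a1, Cd79a, Cd3d, Cd4, Zbtb46, Stab2, Clec4f, Timd4, Marco, Vsig4, Clec4g, Oit3, Fcna, Pf4, Ms4a7 and Cd3e were named outside that rule, after their values were seen. Some genes of the lists are not reported here.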

Additional observations from a re-analysis of the deposited data

How the results depend on the processing

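None of the 10 genes was called in any of the 18 alternatives (17 for Psmb9, which was under a mean of 50 counts in one). The sign of the log2 fold change was kept in all alternatives run for H2-K1, H2-D1, B2m, Tap2, Psmb8, Psmb9 and H2-Ab1. It turned for H2-Aa (−0.39 to 1.04 with a pool left out), Cd74 (−0.16 to 0.78) and Tap1 (−0.40 to 0.057), and for Tap1 without both pools lowest in choroid plexus markers (0.16). The median of the 10 genes was −0.0029 without both those pools and −0.33 to −0.13 with 1 pool left out. Of the 10 genes, 3 to 4 did not overlap with a pool left out, beside 32.1% to 37.6% of all tested genes, and the Psmb10/Psmb7 difference ran from −0.17 to 0.090.

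Across all genes, the 401 called became 1154 with DESeq2 (662 higher, 492 lower), 140 with a replicate block (128 higher, 12 lower), 240 with limma on log2(FPKM + 1) without a filter, 1178 with the endothelial score as a covariate, 23 without both pools lowest in choroid plexus markers, and 131 to 508 with a pool left out. The 174 called with a log2 fold change beyond 1 became 297, 86, 60, 417 and 23 in the same order, 65 with limma and its filter, and 85 to 176 with a pool left out. The covariates and the removal of both pools were chosen after seeing the data. Causes of these shifts were not tested.

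Same-numbered pools of both groups did not deviate together (r = 0.0148, 0.108 and −0.404 for numbers 1, 2 and 3), so the numbers were not taken as pairs. With the replicate block the calls of H2-Q10, Azgp1 and Psme4 were lost (edgeR adjusted p = 0.0572, 0.0751 and 0.0832), with log2 fold changes of 3.22, 2.72 and 0.44. Calls were also lost for H2-Q10 and Psme4 with limma on log2(FPKM + 1) without a filter (limma adjusted p = 0.0547 and 0.0509) and for Azgp1 with the choroid plexus score as a covariate (edgeR adjusted p = 0.0581). The log2 fold changes in these fits were 1.16 for H2-Q10, 0.39 for Psme4 and 2.53 for Azgp1. With 3 pools a group, small differences could not be detected. The intervals given are not adjusted for the number of genes tested. H2-D1, H2-K1 and Psmb8 had intervals that excluded 0 and were still not called, so a call needed a larger difference than the intervals show.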

Other observations

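The genes whose pools resembled the antigen presentation genes most were ranked by Pearson's r over the 6 pools, among 14270 genes with a mean of at least 50 counts, as a description that carries no test because 6 points of the same libraries give high values for many genes. For the mean pattern of the 7 class I and peptide supply genes they were Rora, an orphan nuclear receptor (r = 0.988), Fzd6, a Wnt receptor (r = 0.983), Nppc, the C-type natriuretic peptide (r = 0.981), Tns2, a focal adhesion protein (r = 0.981), and Il10rb, a subunit of cytokine receptors (r = 0.980), and 27 genes were above 0.95. All 5 were lowest in olanzapine pool 3, as was the pattern itself, and Fzd6 stood there at 169 normalized counts beside 325 to 412 in the other pools.

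For the mean pattern of Cd74, H2-Aa and H2-Ab1 they were Serinc2, a membrane protein (r = 0.998), Bmp4, a growth factor (r = 0.994), Tyw3, a tRNA-modifying enzyme (r = 0.984), Pmf1, a kinetochore protein (r = 0.982), and Podn, a matrix proteoglycan (r = 0.979), and 22 genes were above 0.95. Serinc2 was at 78.9, 162 and 282 normalized counts in control pools 1, 2 and 3 and at 319, 295 and 80.4 in the olanzapine pools, lowest in the pools that were lowest for class II.

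Markers of the liver's own macrophages and sinusoids, which would carry class II in liver tissue, summed to 55.0 to 79.3 normalized counts in the control pools and 55.6 to 126 in the olanzapine pools. Of these 8 genes 1 passed the filter, with a log2 fold change of 0.20, and it was not called by edgeR (0 at an unadjusted p under 0.05). That gene, Stab2, made most of the sum. Below the filter, the macrophage genes Clec4f (0, 0 and 1 counts in the control pools, 3, 3 and 6 in the olanzapine pools), Timd4 (0 in each, then 1, 1 and 4) and Marco (0 in each, then 1, 2 and 1) were higher in every olanzapine pool, at counts too low for a test, while Vsig4, Clec4g, Oit3 and Fcna overlapped between the groups. No share of all genes at such low counts was taken beside them. Of the border macrophage markers below the filter, Pf4 was lower in every olanzapine pool. It had 12, 7 and 19 counts in the control pools, against 3, 2 and 5 in the olanzapine pools, while Ms4a7 overlapped. These genes were named after their values were seen. Blood markers, 8 genes of red cells and neutrophils, summed to 2194 to 2867 in the control pools and 2246 to 2700 in the olanzapine pools, and 0 of 5 tested were called by edgeR (0 at an unadjusted p under 0.05). The 10 LS neuron markers summed to 87633 to 109351 in the control pools and 67558 to 91731 in the olanzapine pools. Of their log2 fold changes, 9 of 10 were below 0, with a median of −0.36, and 0 were called by edgeR. At an unadjusted p under 0.05 there were 3, all lower in the olanzapine group, against 8.4% of all tested genes in that direction.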
